A study of Mus musculus with 18 samples.

Results

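The genes described are the mouse translation initiation factors that have a probe set on the array. Members were chosen by symbol: every gene whose symbol starts with Eif and a digit from 1 to 6, leaving out the Eif2ak kinases, which are not initiation factors, and the Eif2s3x and Eif2s3y pair on the sex chromosomes. Where a gene had several probe sets, the one used was selected on its mean level. The rule found 46 genes on 50 probe sets, out of 22180 genes with a probe set of 1 symbol. RefSeq lists 44 of them as protein-coding, Eif1-ps3 as a pseudogene and Eif2c5 as a long non-coding RNA that is not an initiation factor. By the same symbol rule RefSeq holds 50 protein-coding genes, of which 6 have no probe set of their own symbol and were not analysed here: Eif1, Eif2s1, Eif3g, Eif3j2, Eif4ebp3 and Eif4g1. The family was singled out with earlier results of the same comparison known, so its counts below describe these arrays and are not independent evidence of a direction.

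Initiation is the step at which a ribosome finds the start codon of an mRNA. The eIF2 complex brings the initiator tRNA to the small ribosomal subunit, where eIF1, eIF1A and the large eIF3 complex hold it open for scanning, and eIF2B recharges eIF2 with GTP after each round. The eIF4 factors load the mRNA: eIF4E binds the cap, eIF4G is the scaffold, eIF4A with eIF4B and eIF4H unwinds the leader, and the eIF4E-binding proteins hold eIF4E back when mTOR signalling is low. Stress kinases that phosphorylate eIF2 slow the whole process. In the liver, which makes most plasma proteins, and in the small intestine, whose lining is replaced continuously, protein synthesis is a large part of what the cells do.

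The arrays come from germ-free mice, raised without microbes, of C57BL/6 background that were colonised at 5 to 6 weeks of age and kept for 8 weeks, and the design asks how the age of the microbiota donor bears on gene expression in the recipient's gut and liver. OMT recipients received microbiota from donors of 2 years, given as about 24 months in the design text, and YMT recipients from young donors, given as 4 weeks in the protocol and 5 to 6 weeks in the design text. Every recipient was young when sampled, at 12 or 13 weeks depending on the label, so both groups share the germ-free start and the same age. Each tissue has 5 OMT and 4 YMT arrays, called biological replicates by the labels, and no group of mice with their own microbiota or still germ-free was used here. The p-values measure the spread among these recipients. How many donors or cages stood behind each group was not used here, so a shared donor or cage and donor age cannot be told apart.

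Levels are log2 array values, so a difference of 1 is a doubling, and OMT and YMT are compared only within a probe set and a tissue. Marker levels are set side by side across tissues only to check the tissue labels, since it is not stated whether both tissues were normalized together. No arrays held identical values, and arrays of 1 group correlated at 0.970 to 0.987. Each tissue carried its own markers. Over 10 hepatocyte markers the mean ranged from 11.85 to 12.01 in livers and from 6.72 to 7.32 in intestines. Over 10 enterocyte markers it ranged from 11.45 to 12.30 in intestines and from 5.82 to 6.21 in livers. In liver the mean over 7 endothelial markers was 6.77 to 7.08 in OMT against 7.26 to 7.55 in YMT, with 5 of the 7 genes lower, and that over the hepatocyte markers was 11.95 to 12.01 in OMT against 11.85 to 11.92 in YMT, with 1 of 10 higher. Fibroblast and stellate cell markers overlapped between groups, at 5.73 to 5.94 in OMT and 5.88 to 6.27 in YMT, with 4 of 7 lower and 1 higher. So did smooth muscle markers, at 4.76 to 4.97 and 4.96 to 5.27, with 2 of 6 lower, and macrophage markers, at 6.33 to 6.70 and 6.41 to 6.64, with 2 of 7 lower and 1 higher. T cell and NK cell markers, dim in liver, did not overlap there, at 3.61 to 3.67 in OMT and 3.71 to 3.93 in YMT, with 0 of the 2 tested genes past the limma threshold. In intestine the goblet cell markers averaged 10.89 to 11.44 in OMT against 11.49 to 11.71 in YMT, with 1 of 7 lower, and the T cell and NK cell markers 6.52 to 7.07 against 7.16 to 7.63, with 2 of 8 lower. In whole tissue, fewer cells of a type and less RNA per cell cannot be told apart, and the part of these markers in the results below was not tested.

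In the liver of OMT recipients 10 initiation factor genes were higher, 1 was lower and 33 did not pass the threshold, an adjusted p under 0.05 in limma over all genes tested. The risen genes were Eif1a, Eif3a, Eif4g2, Eif4a2, Eif4e, Eif3f, Eif6, Eif2b4, Eif4b and Eif2b1, and the fallen one was Eif4e3. They include at least 1 gene of the scanning, eIF2B, eIF3, eIF4A, eIF4E, eIF4G and eIF6 groups. The 44 members tested were 22.7% higher and 2.27% lower, beside 10.4% higher and 8.78% lower among all 13380 genes tested in liver. In 10 members every OMT array lay above every YMT array and in 2 every OMT array lay below, beside 9.64% and 8.51% of all genes. The median difference over the members was 0.14 and over all genes -0.005. Of the members 34 (77.3%) were positive and 10 negative, beside 49.0% positive among all genes. Averaged over the tested members, the OMT arrays lay at 7.54 to 7.60 and the YMT arrays at 7.37 to 7.45, without overlap.

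Eif1a apart, the differences were small, at most 1.39-fold upward and 1.44-fold downward, and the number called moved with single arrays. Without YMT replicate 4 the count of higher genes was 4, or 9.09% of members beside 8.16% of all genes. It was 5 without YMT replicate 2 (11.6% beside 6.99%) or OMT replicate 5 (11.4% beside 7.41%), and 6 without OMT replicate 4 (13.6% beside 11.4%). After median centring it was 4 (9.09% beside 8.41%) and after quantile normalization within the liver 5 (11.4% beside 8.64%). Under centring and without YMT replicate 4 the members' share was thus near that of all genes. The members' median lay 0.12 to 0.16 above the median of all genes as each array was left out, and 0.14 above it under either normalization. The members just inside the threshold were Eif4b and Eif2b1, at adjusted p-values of 0.0464 and 0.0468 in limma, and those just outside were Eif2b3 at 0.0517 and Eif3e at 0.0553.

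**Figure D1:**
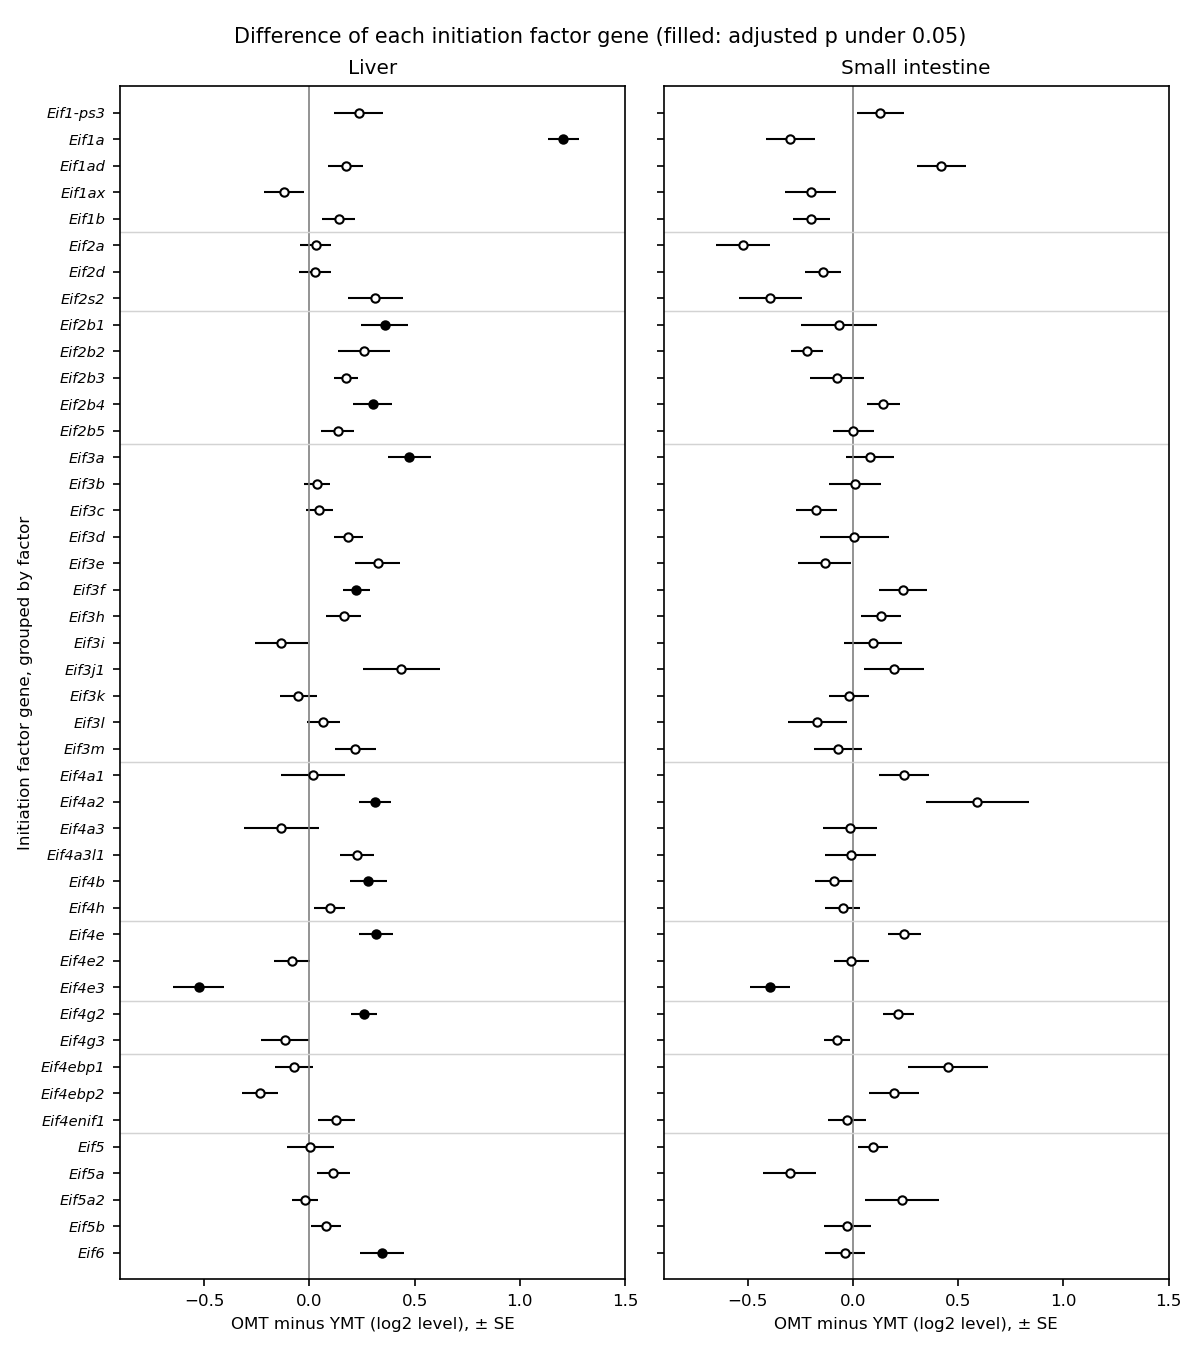
Differences between OMT and YMT recipients (x axis, log2 level, with the standard error as a bar) for each of the 44 initiation factor genes tested, grouped by factor, in liver (left) and small intestine (right). Filled points passed an adjusted p of 0.05 in limma: 11 in liver, where Eif1a stands alone at 1.21 and Eif4e3 is the lowest at -0.53, and Eif4e3 alone in intestine.

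Among the genes of eIF1 and eIF1A, the small proteins that keep the scanning subunit from settling on a wrong start codon, Eif1a changed most. In liver it read 8.30, 8.13, 8.16, 8.19 and 8.33 on the OMT arrays and 6.94, 6.91, 7.11 and 7.10 on the YMT arrays. Every OMT array lay more than 1 log2 unit above the highest YMT array, and neither group spread by more than 0.20. Eif1a, an autosomal copy of the gene for eIF1A, was 2.31-fold higher, a difference of 1.21 ± 0.08 (SE, n = 5 and 4; adjusted p = 6.85e-06 in limma), and ranked 13th of all genes in liver by p. Its difference was between 1.16 and 1.24 under all 20 alternatives tried, and it passed the threshold in each.

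Eif1ax, the X-linked gene for the same factor, did not share that difference. It read 7.56, 7.80, 7.86, 8.08 and 7.78 in OMT liver and 7.96, 7.91, 7.97 and 7.90 in YMT liver, so the groups overlapped. The measured difference was -0.12, with a 95% confidence interval of -0.33 to 0.09. How far the probes of the Eif1a and Eif1ax sets tell these near-identical copies apart was not tested. The remaining 3, Eif1b, the eIF1A-domain gene Eif1ad and the pseudogene Eif1-ps3, had overlapping groups and differences of 0.14 to 0.23 that did not pass.

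**Figure D2:**
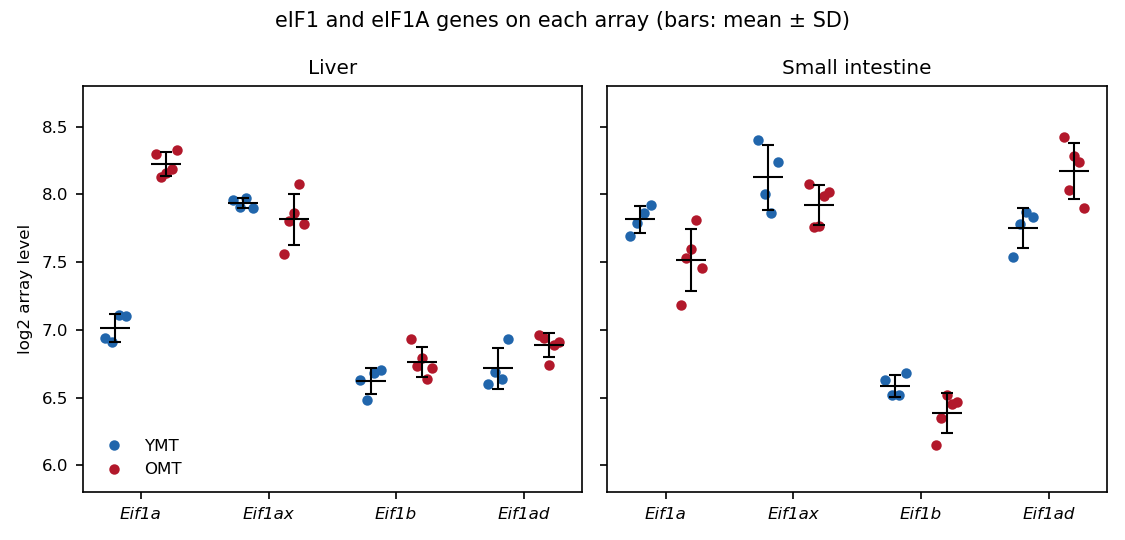
Levels (y axis, log2 array level) of Eif1a, Eif1ax, Eif1b and Eif1ad on each array, with YMT in blue and OMT in red, in liver (left) and small intestine (right). Points are arrays and bars are the mean ± SD. The 5 OMT livers sit at 8.13 to 8.33 for Eif1a and the 4 YMT livers at 6.91 to 7.11, while in intestine the groups overlap.

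The 3 measured genes that handle the initiator tRNA did not pass in liver. They are Eif2s2, the beta subunit of eIF2, and Eif2a and Eif2d, factors that can deliver initiator tRNA outside the eIF2 route, with differences of 0.31, 0.03 and 0.03. All 5 genes of eIF2B, the exchange factor that the stress kinases act through, had positive differences of 0.13 to 0.36, and 2 of them passed. Eif2b1, the alpha subunit, read 6.52, 6.51, 6.54, 6.71 and 6.60 in OMT and 6.13, 6.19, 6.58 and 5.97 in YMT. YMT replicate 3 lay among the OMT arrays and the other 3 below them. The difference was 0.36 ± 0.11 (SE; adjusted p = 0.0468 in limma), and 15 of 20 alternatives lost the call, among them leaving out any array except YMT replicate 3.

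Eif2b4, the delta subunit, read 5.20, 5.33, 5.12, 5.37 and 5.42 in OMT and 5.11, 5.12, 4.91 and 4.81 in YMT, with the groups meeting at 5.12. It was higher by 0.30 ± 0.09 (SE; adjusted p = 0.0437 in limma), a call lost in 11 of 19 alternatives, including without OMT replicate 1, 2, 4 or 5 or YMT replicate 3 or 4. Eif2b5, the catalytic epsilon subunit, read 6.42, 6.50, 6.70, 6.63 and 6.53 against 6.49, 6.37, 6.50 and 6.33. These groups overlapped, and the difference of 0.13 had an interval of -0.04 to 0.30 (95%; adjusted p = 0.263 in limma). In Eif2b3, the gamma subunit, every OMT array at 6.13 to 6.20 lay above every YMT array at 5.98 to 6.00, although its adjusted p in limma was 0.0517.

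Of 12 genes for subunits of eIF3, the scaffold that gathers the other factors on the small subunit, 2 rose in liver and none fell, and 10 of the 12 differences were positive. Eif3a, the largest subunit, read 10.25, 10.18, 9.91, 9.72 and 10.03 in OMT and 9.51, 9.53, 9.59 and 9.54 in YMT. The YMT arrays sat within 0.08 of each other, and every OMT array lay above them over a wider spread. The difference was 0.48 ± 0.10 (SE; adjusted p = 0.00932 in limma), and it passed under all 20 alternatives. Eif3f, a regulatory subunit, read 8.43, 8.35, 8.52, 8.51 and 8.48 against 8.28, 8.20, 8.28 and 8.18.

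For Eif3f the groups did not overlap, and the difference was 0.22 ± 0.06 (SE; adjusted p = 0.0346 in limma). The call was lost in 12 of 20 alternatives, including without any 1 array other than OMT replicate 2 or YMT replicate 1. Eif3d, which can bind caps itself, and Eif3h were also without overlap, at differences of 0.19 and 0.16, but did not pass. The lowest eIF3 difference was that of Eif3i, -0.13. Eif3j1, a loosely bound subunit, had a positive difference of 0.44 with the OMT arrays spread from 5.79 to 6.76, and did not pass (adjusted p = 0.123 in limma).

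Among the eIF4A helicases and their helpers, Eif4a2 and Eif4b rose in liver and Eif4a1 did not pass. Eif4a2 read 8.20, 8.40, 8.17, 8.37 and 8.35 in OMT and 7.96, 8.12, 7.96 and 7.91 in YMT, all OMT arrays being above all YMT arrays. The difference was 0.31 ± 0.08 (SE; adjusted p = 0.0173 in limma), a call lost in 1 of 20 alternatives, at an adjusted p of 0.0736. The 2 further probe sets of Eif4a2 alone gave 0.45 and 0.31 in liver, in the same direction. Those that name it with a small nucleolar RNA gave 0.65 ± 0.17 (Snord2) and 0.57 ± 0.36 (Snora81, SE). The set that names it with Rfc4 gave -0.045 ± 0.09 (SE). The part of small RNAs in the liver values of Eif4a2 was not tested. Eif4b, which stimulates the helicase, read 9.83, 9.76, 9.79, 9.51 and 9.66 in OMT and 9.34, 9.33, 9.59 and 9.46 in YMT, where YMT replicate 3 stood above OMT replicate 4. It was higher by 0.28 ± 0.09 (SE; adjusted p = 0.0464 in limma), and 12 of 20 alternatives lost that call, including without OMT replicate 1, 2, 3 or 5 or YMT replicate 1, 2 or 4.

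Eif4a1, the main helicase, read 12.36, 12.45, 12.12, 12.82 and 12.51 in OMT liver and 12.58, 12.04, 12.50 and 12.62 in YMT liver. The groups overlapped throughout, and the difference was 0.02, with a 95% interval of -0.32 to 0.35. A second, dimmer probe set of Eif4a1 read 6.80 to 7.02 in OMT and 6.64 to 6.77 in YMT, without overlap and with a difference of 0.28 ± 0.07 (SE). That value lies within the interval of the first probe set, and the difference between the sets was not tested. Eif4a3, the helicase of the exon junction complex, its copy Eif4a3l1 and Eif4h did not pass, at -0.13, 0.23 and 0.10.

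The cap-binding proteins went both ways in liver, and this was the only group with a fallen gene. Eif4e, the cap-binding subunit that limits loading of many mRNAs, read 8.27, 8.15, 8.17, 8.16 and 8.05 in OMT and 7.96, 7.73, 7.97 and 7.71 in YMT. Every OMT array was above every YMT array, with a difference of 0.32 ± 0.08 (SE; adjusted p = 0.0197 in limma). The call was lost in 4 of 20 alternatives, at adjusted p-values of up to 0.0749 in limma. Without YMT replicate 2 or 4 the adjusted p was 0.0634 or 0.0559, and after median centring it was 0.0504. Eif4e3, an unusual relative that binds the cap in its own way, read 4.92, 4.94, 4.89, 4.73 and 5.06 in OMT and 5.25, 5.85, 5.31 and 5.33 in YMT.

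For Eif4e3 every OMT array lay below every YMT array, YMT replicate 2 standing highest. It fell by 0.53 on the log2 scale (SE 0.12; adjusted p = 0.0128 in limma), and by 0.39 without that replicate, still past the threshold. Of the rest, Eif4e2, a repressive cap-binding protein, differed by -0.08 and did not pass, and Eif4e1b, a gene of oocytes, was too dim to be tested in either tissue. Eif4g2, a scaffold without the eIF4E-binding part, read 10.75, 10.82, 10.77, 10.80 and 10.82 in OMT liver and 10.43, 10.57, 10.59 and 10.54 in YMT liver. The OMT arrays lay within 0.07 of each other and above all YMT arrays, a difference of 0.26 ± 0.06 (SE; adjusted p = 0.0141 in limma). That call was lost in 1 of 20 alternatives, at an adjusted p of 0.0931 in limma. Eif4g3 did not pass, at -0.12.

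No eIF4E-binding protein passed in liver. Eif4ebp1, the inhibitor released from eIF4E by mTOR, read 7.32, 6.85, 7.07, 7.13 and 7.06 in OMT and 7.23, 7.07, 7.14 and 7.20 in YMT, overlapping, with a difference of -0.07 and a 95% interval of -0.28 to 0.13. Eif4ebp2, its close relative, read 9.02, 8.91, 8.72, 8.67 and 8.92 in OMT and 9.05, 9.04, 9.08 and 9.16 in YMT. All OMT arrays lay below all YMT arrays, by 0.02 at the nearest pair. The difference was -0.23 ± 0.08 (SE; adjusted p = 0.0751 in limma), and it passed after median centring, at 0.0371, and without OMT replicate 1, at 0.0449. Eif4enif1, which carries eIF4E into the nucleus, differed by 0.13 and did not pass.

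Of the late factors, which join the subunits or act after them, only Eif6 rose in liver. This factor keeps the large subunit from joining too early and is needed for its assembly. It read 7.83, 7.96, 8.01, 8.17 and 8.14 in OMT and 7.82, 7.75, 7.74 and 7.39 in YMT. The groups were separated by 0.01, with YMT replicate 4 well below the others. The difference was 0.35 ± 0.10 (SE; adjusted p = 0.0402 in limma) and was 0.25 without YMT replicate 4. The call was lost in 11 of 20 alternatives, including without OMT replicate 2, 3, 4 or 5 or YMT replicate 2, 3 or 4.

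Eif5a, the hypusine-bearing factor that helps ribosomes past difficult peptide bonds, read 7.98, 7.93, 8.18, 8.03 and 7.95 in OMT liver and 7.96, 8.00, 7.88 and 7.76 in YMT liver. The groups overlapped, and the difference of 0.11 had a 95% interval of -0.06 to 0.29. Eif5, the GTPase activator of eIF2, and Eif5b, which joins the subunits, differed by 0.005 and 0.08, and the paralog Eif5a2 by -0.02. None of these passed.

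**Figure D3:**
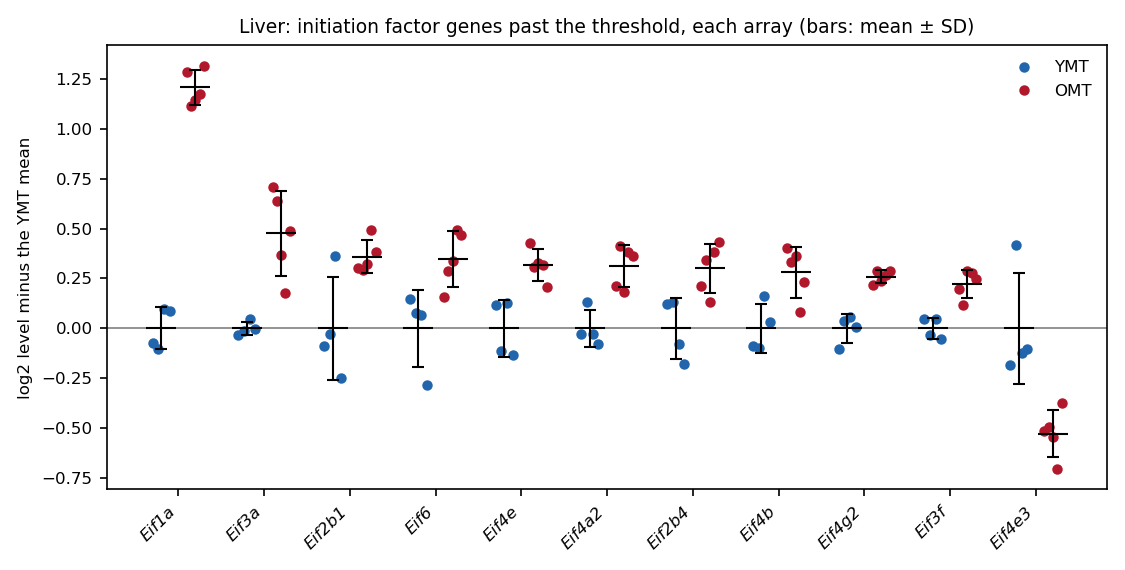
The 11 initiation factor genes past the threshold in liver, each array (YMT blue, OMT red) plotted as its log2 level minus the gene's YMT mean (y axis), with bars for the mean ± SD. Eif1a lies highest, at 1.21, the 9 genes from Eif3a to Eif3f lie at 0.22 to 0.48 with some overlap in Eif2b1, Eif2b4 and Eif4b, and Eif4e3 lies below 0 in OMT with YMT replicate 2 standing apart.

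The promoter of a member is shown because several of these genes share a short motif there. RefSeq windows of assembly GRCm38.p6, from 250 bases before to 50 after a start, were given for 35 of the 46 genes. The E-box CACGTG, the palindrome bound by MYC family and related factors, stood in a window of 9 of the 35, or 25.7%, against 8.91% of 17492 protein-coding genes and 8.09% of all genes with a window. The 9 were Eif1b, Eif3a, Eif3f, Eif3k, Eif4a1, Eif4e, Eif4h, Eif5a and Eif5a2. Of these 3, Eif3a, Eif3f and Eif4e, were among the 7 liver-risen genes with a window. The E-box of Eif3a lies after the start, with its first base at 23. The risen Eif1a, Eif4g2 and Eif6 had no window, so the motif was not looked for in them. The 35 include the non-coding Eif2c5, whose window has no E-box. Some genes, such as Eif5a, have several windows. Counted by window, the E-box stood in 23.4% of the members' 47 windows and 7.84% of protein-coding windows. The members' windows had a median GC content of 62.7% against 56.3% over protein-coding windows, and the E-box itself is rich in G and C. The ATF4 and C/EBP composite site TGATGCAA was in none of the 35 and in 1.01% of protein-coding genes, the heat shock element core GAANNTTC in 14.3% against 8.44%, and the ER stress element in none against 0.166%. Both strands were searched, the last letters of the ER stress element can coincide with the first of an E-box, and a match describes letters, not binding.

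The 250 bases before the start of Eif3f, on the plus strand at chr7:108934165-108934414, hold 1 E-box, in capitals, whose first base is at -68. For Eif4e, with 2 starts 1077 bases apart, 30 bases around each E-box before the second start are given, at chr3:138527028-138527057 and chr3:138527192-138527221 on the plus strand, with first bases at -228 and -64. All are from RefSeq, GRCm38.p6, written 5′ to 3′.
Eif3f, before the start: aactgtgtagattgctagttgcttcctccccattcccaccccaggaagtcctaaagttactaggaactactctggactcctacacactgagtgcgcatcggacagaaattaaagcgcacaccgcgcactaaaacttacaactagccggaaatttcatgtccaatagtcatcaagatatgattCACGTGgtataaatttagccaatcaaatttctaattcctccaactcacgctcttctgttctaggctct
Eif4e, distal E-box: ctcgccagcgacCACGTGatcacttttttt
Eif4e, proximal E-box: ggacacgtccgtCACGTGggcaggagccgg

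Other genes of translation were read in the same liver fit from lists by function. Among all 13380 genes tested there, 10.4% were higher, 8.78% lower and 49.0% had a positive difference. Of 11 genes listed as partners of start site selection and ribosome recycling 7 (63.6%) rose and none fell. All 11 differences were positive, with a median of 0.30. The list also holds ribosome assembly factors, and Ltv1, Nob1, Sbds and Efl1 among the risen genes are such factors. The risen genes were led by Ltv1 and Nob1, assembly factors of the small subunit (0.50 ± 0.08 and 0.60 ± 0.10, SE, adjusted p = 0.00155 and 0.00200 in limma). Abce1, which splits ribosomes after termination, rose by 0.33, and Bzw2, a mimic of eIF5, by 0.46. Sbds and Efl1, which together remove eIF6 from the new large subunit, rose by 0.25 and 0.30, beside the 0.35 of Eif6 itself. The call of Eif6 was lost in 11 of 20 alternatives, and a link between these changes was not tested. Mcts2, which stood between Sbds and Efl1 by p, rose by 0.54.

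Of 10 kinases, phosphatases and regulators acting on eIF2, 4 rose (40%, beside 10.4% of all genes) and none fell in liver. The median was 0.14, with 5 differences of each sign. Impact, which restrains the amino acid-sensing kinase Eif2ak4, stood at 7.93 ± 0.21 in OMT (SD, n = 5) and 6.15 ± 0.13 in YMT (SD, n = 4), a difference of 1.78 ± 0.11 (SE; adjusted p = 6.85e-06 in limma). Dnajc3, an ER co-chaperone that holds back Eif2ak3, rose by 0.86, Eif2ak3, the kinase of ER stress, by 0.55, and Ppp1r15b, which directs the phosphatase to eIF2, by 0.39. Eif2ak4 itself did not pass, at -0.12. Phosphorylation of eIF2 is not seen by an array of RNA.

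The synthetases that charge tRNAs included 7 risen (36.8%, beside 10.4% of all genes) and no fallen genes of 19. Their median was 0.22, with 16 of 19 differences positive. The risen synthetases were led by Rars and Iars (0.60 ± 0.08 and 0.68 ± 0.10, SE, adjusted p = 5.21e-04 and 0.00113 in limma), then Yars and Sars at 0.43 and 0.31. Elongation and termination factors had 3 risen of 15 (20%) and none fallen, Eef1d at 0.35, Eef2 at 0.31 and Etf1 at 0.22. Of these 15 differences 13 were positive. The partners and kinases of the cap-binding complex went both ways, with 2 risen (13.3%) and 1 fallen (6.67%) of 15. These shares were near the 10.4% and 8.78% of all genes, and 9 of the 15 differences were positive. Paip2b, an inhibitor of poly(A)-binding protein, rose by 0.60 and Mknk1, a kinase of eIF4E, by 0.39, and Mtor fell by 0.35. Of 55 cytosolic ribosomal proteins 3 rose and none fell, Rpl14 by 0.27, Rpl5 by 0.58 and Rps27 by 0.28, a share of 5.45% beside the 10.4% of all genes. Their median was 0.07, and 42 of the 55 differences (76.4%) were positive, a share like that of the initiation factors. Mitochondrial factors had 1 of 9 (11.1%) in each direction, near the shares of all genes, Mtrf1l higher by 0.39 and Tufm, which fell by 0.26. Of these 9 differences 4 were positive. These lists were put together with earlier results of the same arrays known and were described by counts alone.

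**Figure D4:**
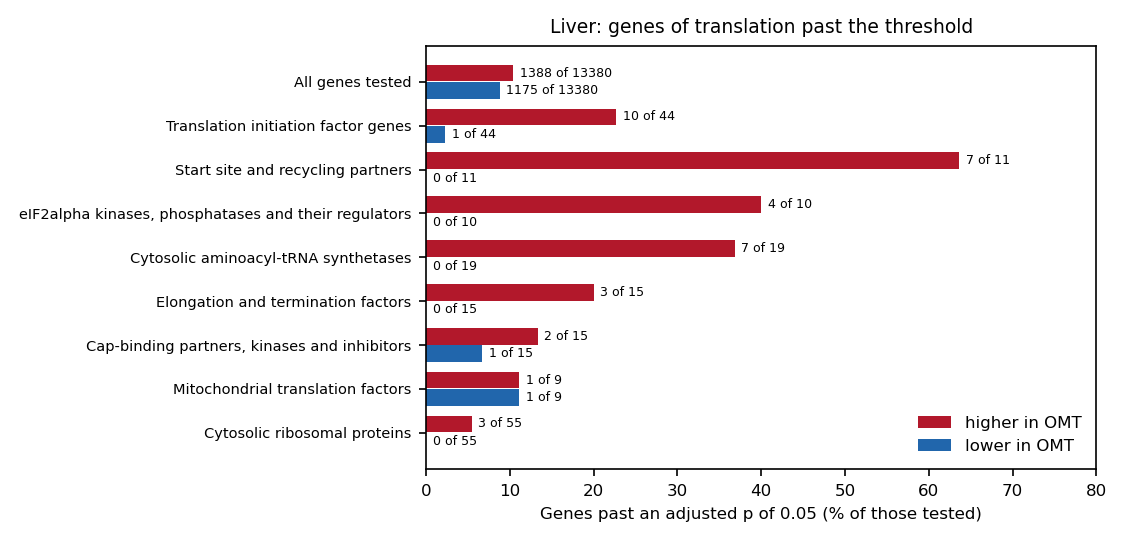
Percent of genes past an adjusted p of 0.05 in the liver (x axis), higher in OMT (red) or lower (blue), for all genes tested and for 8 lists of translation genes (y axis), with counts at the bars. The initiation factors stand at 10 of 44 higher and the ribosomal proteins at 3 of 55, beside 1388 of all 13380 genes.

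In the small intestine 0 initiation factor genes were higher and 1 was lower in OMT recipients by limma, with 43 not past the threshold. At an unadjusted p under 0.05 there were 12, or 27.3% of members beside 22.8% of all genes. Among all 13238 genes tested there, 1.04% were higher and 3.1% lower. In 2 members, Eif1ad and Eif4e, every OMT array lay above every YMT array, and in 3, Eif2a, Eif2b2 and Eif4e3, every OMT array lay below, beside 2.8% and 6.84% of all genes. The differences ran from -0.52 to 0.59 with a median of -0.02 and -0.02 over all genes. Of the members 19 (43.2%) were positive and 25 negative, beside 45.2% positive among all genes. The mean over the members was 7.63 to 7.77 on the OMT arrays and 7.62 to 7.79 on the YMT arrays.

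The fallen gene was Eif4e3, as in liver. In intestine it read 5.89, 5.73, 6.04, 5.81 and 6.09 in OMT and 6.13, 6.32, 6.38 and 6.40 in YMT, with every OMT array below every YMT array. It fell by 0.40 (SE 0.10; adjusted p = 0.0474 in limma). The call was lost without OMT replicate 1, 2, 3 or 4 or YMT replicate 2, 3 or 4, at adjusted p-values of 0.0649 to 0.123, with the direction the same each time. Eif4e read 8.38, 8.30, 8.26, 8.38 and 8.30 in OMT and 8.12, 7.99, 7.96 and 8.25 in YMT, again without overlap as in liver, but at 0.24 ± 0.08 it did not pass (SE; adjusted p = 0.0967 in limma).

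Eif2a stood just outside the threshold in intestine, at 6.73, 6.37, 6.74, 7.12 and 6.73 in OMT and 7.27, 7.22, 7.17 and 7.39 in YMT. The OMT arrays were all lower, the difference being -0.52 ± 0.13 (SE; adjusted p = 0.0510 in limma). Eif1a, so different in liver, read 7.18, 7.53, 7.60, 7.81 and 7.46 in OMT intestine and 7.69, 7.79, 7.86 and 7.92 in YMT intestine. There the groups overlapped and the difference was negative, -0.30 ± 0.12 (SE; adjusted p = 0.161 in limma). Eif1ad had a positive difference of 0.42 that did not pass (adjusted p = 0.0687 in limma).

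None of the 3 genes for eIF4E-binding proteins passed in intestine. Eif4ebp1 read 6.68, 7.0, 6.95, 7.53 and 7.66 in OMT and 6.62, 6.60, 6.69 and 6.94 in YMT, where OMT replicates 4 and 5 stood high and the others lay near or among the YMT arrays. Its difference was 0.45 ± 0.19 (SE; adjusted p = 0.194 in limma). Eif4ebp2 read 9.06, 9.15, 8.83, 8.52 and 8.85 in OMT and 8.68, 8.61, 8.73 and 8.73 in YMT. The groups overlapped through OMT replicate 4, and the difference of 0.19 had a 95% interval of -0.07 to 0.46.

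The helicase genes did not pass in intestine either. Eif4a1 read 13.00, 12.77, 12.63, 12.45 and 12.69 in OMT and 12.61, 12.44, 12.57 and 12.24 in YMT, overlapping, with a difference of 0.24 and a 95% interval of -0.02 to 0.50. Eif4a2, represented in intestine by a different probe set from that in liver, read 9.40, 8.51, 8.44, 8.05 and 8.15 in OMT and 7.83, 7.92, 8.24 and 7.69 in YMT. OMT replicate 1 stood highest by far, and that array also had the highest mean level of 75 small nucleolar RNA probe sets, 8.24 against 6.87 to 7.78 on the other 8. Introns of Eif4a2 host such RNAs. The difference of 0.59 ± 0.25 (SE; adjusted p = 0.188 in limma) was 0.37 without that array, and the probe set used in liver gave 0.18 ± 0.09 (SE) in intestine. The part of the small RNAs in these values was not tested.

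Eif5a read 7.12, 6.96, 7.26, 7.59 and 7.35 in OMT intestine and 7.64, 7.58, 7.36 and 7.65 in YMT intestine. OMT replicate 4 lay among the YMT arrays, and the difference of -0.30 did not pass (adjusted p = 0.184 in limma). Eif6 read 9.25, 9.45, 9.67, 9.51 and 9.46 against 9.35, 9.55, 9.64 and 9.49, a difference of -0.04 with a 95% interval of -0.25 to 0.17. Both groups covered the same range. Eif2b5 read 6.52, 6.52, 6.53, 6.43 and 6.51 in OMT and 6.80, 6.32, 6.37 and 6.51 in YMT, a difference of 0.002 with an interval of -0.21 to 0.22.

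None of the other translation lists held a risen gene in intestine by limma, and the only fallen one was Eif2ak1, the haem-sensing kinase of eIF2, by 0.46 (SE 0.10; adjusted p = 0.0340). At an unadjusted p under 0.05 the lists held from 0 of 8 genes, in the mitochondrial factors, to 3 of 10, or 30.0%, in the regulators acting on eIF2. This compares with 22.8% of all genes. The ribosomal proteins held 6 of 54, or 11.1%. The ribosomal proteins had a median difference of 0.14 with 45 of 54 positive, and the tRNA synthetases a median of -0.14 with 3 of 19 positive. Among all genes tested in intestine 45.2% were positive.

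Whether the OMT difference was unequal in liver and intestine was tested for each gene on all 18 arrays. It was unequal in 4 of the 44 members, or 9.09%, beside 11.9% of all 11970 genes tested, so the members' share was not above that of all genes. In all 4 the liver difference was the more positive. Eif1a had a liver difference 1.51 ± 0.14 above its intestinal one (SE; adjusted p = 2.82e-06 in limma). Eif2s2, the beta subunit of eIF2, followed at 0.71 ± 0.21 (adjusted p = 0.0324 in limma), from 0.31 in liver and -0.39 in intestine. Eif2a was unequal by 0.55 ± 0.15 (adjusted p = 0.0239 in limma), from 0.03 and -0.52, and Eif2b2, the beta subunit of eIF2B, by 0.48 ± 0.15 (adjusted p = 0.0431 in limma), from 0.26 and -0.22.

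Only Eif1a of these 4 passed under all 15 alternatives. Leaving out the arrays of replicate number 2 or 4 of YMT in both tissues left 1 member (2.33% beside 6.34% of all genes, and 2.27% beside 6.36%). Leaving out OMT replicate 2, 3 or 5 or YMT replicate 1 left 2 (4.55% to 4.65% beside 8.03% to 8.90%). Leaving out OMT replicate 1 left 3 (6.98% beside 9.69%) and YMT replicate 3 gave 5 (11.6% beside 10.4%). Without OMT replicate 4 there were 9 (20.5% beside 14.9%), a share above that of all genes. The labels do not say that a replicate number marks 1 recipient in both tissues, so these settings remove arrays of the same number and not necessarily of the same mouse. The remaining liver-risen genes were not shown to differ between the tissues, and neither was Eif4e3. Over the 44 members the median excess of the liver difference over the intestinal one was 0.14, beside 0.04 over all genes.

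**Figure D5:**
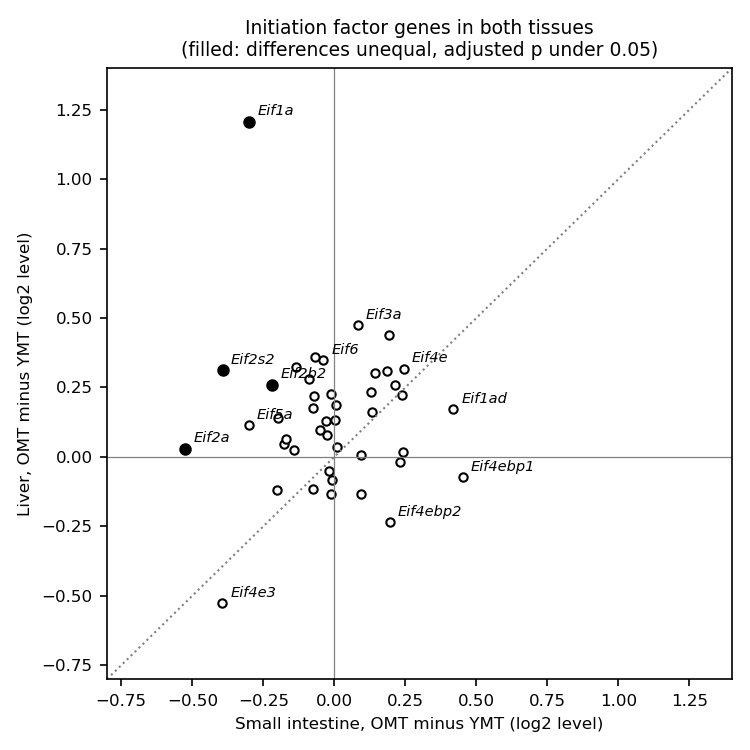
OMT minus YMT difference (log2 level) of each initiation factor gene in small intestine (x axis) and liver (y axis), from the fit on all 18 arrays, in which Eif4a2 enters with 1 probe set for both tissues. The dotted line marks equal differences. Filled points, Eif1a, Eif2s2, Eif2a and Eif2b2, passed the test of unequal differences, and Eif4e3 is negative in both tissues, at -0.53 in liver and -0.40 in intestine.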

How the data were processed

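RNA of 18 samples was hybridised to Affymetrix whole-transcript arrays from 250 ng of total RNA, per the labels' protocols. Per the submitters' processing notes, the authors used RMA and Affymetrix Expression Console to make the deposited log2 values (no version is named). The log base was read from the range of the values (0.3 to 13.5). Whether both tissues were normalized together is not stated.

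Of 41345 probe sets, 23521 have 1 gene symbol in the platform annotation, 1814 have several and 16010 are unnamed here. A probe set was tested in a tissue if it exceeded its array's median, over all probe sets, on at least 4 of 9 arrays, and a gene was read from its probe set of highest mean there. Eif4e1b and Eif2c5 did not pass in either tissue. The donor groups were compared by limma 3.58.1 (R 4.3.3; lmFit, eBayes), two-sided, with Benjamini-Hochberg adjustment over all genes and a threshold of 0.05; the unequal difference was tested over 4 groups. Scripts were tested on simulated data. Array precision is limited by the number of arrays.

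The members and lists were chosen with earlier results of these data known. Per-array values are given for members past the threshold (up to 12 per tissue) and for Eif4ebp1, Eif4ebp2, Eif4e, Eif4a1, Eif4a2, Eif2b5, Eif5a and Eif6, and those of Eif1ax in liver and Eif2a and Eif1a in intestine were added after their values were seen. From other lists up to 4 genes of smallest p are named, with Sbds, Mcts2, Efl1 and Eif2ak4 added. No pairing of OMT with YMT arrays by replicate number was evident, though so few arrays cannot exclude one. Correlations of same-numbered OMT and YMT arrays ran from -0.18 to 0.32, and only replicate 4 in intestine, at 0.32, correlated best with its own number. Between intestine and liver, OMT replicate 5 and YMT replicates 1 and 2 correlated best with their own number, at 0.08, 0.15 and 0.08. The other numbers did not. Whether the tissues share recipients thus stayed unknown. Alternatives were other filters, normalizations, probe set rules and eBayes settings, array weights, all arrays in 1 fit, the replicate block, arrays left out and a threshold of 0.10.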

Additional observations from a re-analysis of the deposited data

Results flagged for a closer look

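For 4 initiation factor genes liver and intestine had unequal OMT minus YMT differences by a test of that inequality, a share of 9.09% of members beside 11.9% of all genes tested. The liver difference exceeded the intestinal one by 1.51 for Eif1a, 0.71 for Eif2s2, 0.55 for Eif2a and 0.48 for Eif2b2. In 2 of the 50 groups of arrays examined, 1 array stood far from the rest of its group, where chance gives about 1 in 20. Eif4e3 was 5.85 on liver YMT replicate 2 and 5.25 to 5.33 on the other YMT livers. Eif2b5 was 6.43 on intestine OMT replicate 4 and 6.51 to 6.53 on the other OMT intestines, a gap that is small beside the spread of the YMT arrays, which ran from 6.32 to 6.80.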

How the results depend on the processing

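The liver count of 10 higher genes (22.7% of members beside 10.4% of all genes) was 5 with no filter on low values (10.9% beside 5.08%), 4 after median centring (9.09% beside 8.41%), 5 after quantile normalization (11.4% beside 8.64%) and 3 with the replicate block (6.82% beside 5.53%). It was 14 at a threshold of 0.10 (31.8% beside 14.5%). As each array was left out it ran from 4 to 8 (9.09% to 18.6% beside 6.99% to 11.4%). The count of 1 lower liver gene (2.27% beside 8.78%) was 0 with a filter at the 75th percentile (0% beside 13.6%), which left Eif4e3 untested in liver. Eif4e3 kept its call there in all 19 alternatives that tested it. The lower count was 2 after median centring (4.55% beside 9.28%) and with OMT arrays 3 to 5 alone (4.55% beside 7.48%). At a threshold of 0.10 it was also 2 (4.55% beside 12.3%). With an array left out it was 1 to 2 (2.27% to 4.55% beside 6.51% to 8.79%). The liver median of 0.1365 was 0.0907 after quantile normalization, while that of all genes moved from -0.005 to -0.045, so the excess was 0.14 in both. In intestine 0 higher genes (0% beside 1.04%) became 1 with the filter at the 75th percentile (2.56% beside 2.64%). The higher count was 2 with all 18 arrays in 1 fit (4.55% beside 2.76%) or a threshold of 0.10 (4.55% beside 2.89%). It was 3 with array weights (6.82% beside 2.78%), and 0 to 1 with an array left out (0% to 2.33% beside 0.274% to 1.17%). The 1 lower intestinal gene (2.27% beside 3.10%) became 0 with no filter, quantile normalization, trend and robust eBayes, the replicate block or OMT arrays 3 to 5 alone. In these settings 1.05% to 3.03% of all genes were lower. The lower count was 2 with the filter at the 75th percentile (5.13% beside 7.81%) or median centring (4.55% beside 3.88%). It was also 2 (4.55%) with all 18 arrays (beside 8.16%), array weights (beside 6.07%) or a threshold of 0.10 (beside 7.17%). With an array left out it was 0 to 1 (0% to 2.33% beside 0.844% to 3.66%). The 4 genes of unequal difference became 2 with no filter (4.35% beside 5.84%) and 2 after quantile normalization (4.55% beside 10.8%). With arrays of 1 replicate number left out they became 1 to 9 (2.27% to 20.5% beside 6.34% to 14.9%). Taking the replicate number as a random replicate block across tissues gave 4 (9.09% beside 12.9%). The labels do not tie a number to 1 recipient, and same-numbered arrays of the tissues correlated at -0.04 to 0.15. Apart from Eif4e3 being left untested by that liver filter, the cause of these moves was not tested. Of the genes that the naming rule gave, 7 of 16 in liver and 7 of 9 in intestine kept their side of the threshold under the alternatives run; Eif1ax in liver and Eif2a and Eif1a in intestine, added later, were not followed through them. None of the called genes among these changed direction, and the uncalled differences of Eif4a1 in liver and of Eif2b5 and Eif6 in intestine changed sign. Dim members such as Eif5a2 lie near the arrays' median, where RMA narrows differences.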
